A study of Mus musculus with 4 samples.

Results

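Naive CD8 T cells are T cells that carry the CD8 coreceptor and have not yet met the antigen their receptor recognises. Here they are the spleen cells to which the authors' deposited annotation gives the name Nai Cd8, and they were chosen by that name alone. They number 1360 of the 24143 cells that carry 1 of 16 cell type names in that annotation. The cells came from 4 libraries of droplet single-cell RNA sequencing, with 766 cells from young WT, 261 from aged WT, 93 from aged 146aKO and 240 from aged miR146aKO_miR155TCKO mice. All values below are given in that order of libraries unless stated otherwise, and the last group is called the double knockout.

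The study sorted live CD45+ lymphocytes (DAPI-, low forward and side scatter) from spleens of C57BL/6 mice. The WT mice carried floxed miR-155 alleles (miR155 fl/fl), the 146aKO mice lacked miR-146a in the whole body, and the double knockout mice lacked miR-146a in the whole body and miR-155 in T cells only. The aged groups were 15 months old, and each group was a pool of 3 to 6 mice sequenced as 1 library. No source used here states how old the young mice were or which Cre removed miR-155 from T cells. With 1 library per group no test between groups was possible, so every interval below is a 95% interval for counting error only and says nothing of the spread between mice.

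Naive CD8 T cells circulate between blood and lymphoid organs, held there by the homing receptors CCR7 and L-selectin, and are kept alive and quiescent by weak self-recognition and interleukin 7. After antigen or strong cytokine signals they lose transcription factors such as LEF1 and gain effector and memory genes, among them the chemokine gene Ccl5. With age the naive CD8 pool shrinks and cells with memory traits accumulate, some of them without any known infection (virtual memory cells). In T cells the microRNA miR-146a restrains NF-kB signalling through the adaptors TRAF6 and IRAK1, whereas miR-155 promotes T cell activation through targets such as SOCS1 and SHIP1 (Inpp5d).

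Both deleted microRNAs act through base pairing of their seed, so their sequences and the sites they can bind are shown first. They are the mature sequences from RefSeq (GRCm38.p6), with the seed, bases 2 to 8, in capitals. miR-146a-5p lies at chr11:43374435-43374456 on the minus strand and miR-155-5p at chr16:84714143-84714165 on the plus strand.
mmu-miR-146a-5p: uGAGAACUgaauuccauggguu
mmu-miR-155-5p: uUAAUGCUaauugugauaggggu

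The sites that follow were found in the 3′ untranslated regions of known targets expressed in these cells (GENCODE vM21, GRCm38), read on the coding strand. Capitals mark the 8-base match, AGTTCTCA for miR-146a-5p and AGCATTAA for miR-155-5p, and a match is a description of the sequence and not of binding. Traf6 (chr2:101697937-101697966, plus strand) held 4 such matches, of which 1 is shown, and Irak1 (chrX:74015393-74015422, minus strand) held 2, of which 1 is shown. Socs1 (chr16:10784206-10784232, minus strand), Inpp5d (chr1:87719816-87719845, plus strand) and Ets1 (chr9:32757186-32757215, plus strand) each held 1.
Traf6: agaagttaccgctctggtgttgAGTTCTCA
Irak1: atccctcagactcagaggtcaaAGTTCTCA
Socs1: ccggctgccgctgtgccgcAGCATTAA
Inpp5d: gggtcctgagatgtttttaaaaAGCATTAA
Ets1: agaccagcactctgggttttaaAGCATTAA

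The Nai Cd8 cells held 2374219, 930782, 344929 and 773035 unique molecular identifiers (UMIs, each 1 captured transcript). The median cell had 2968, 3490, 3481 and 3038 UMIs, and the median share of mitochondrial UMIs was 2.77% to 2.90% in every library. Levels are given as CPM, the UMIs of a gene summed over the Nai Cd8 cells of a library per 1000000 of all their UMIs. Of the Nai Cd8 barcodes, 1 was shared between young WT and aged WT, 1 between aged WT and the double knockout and 0 between the other pairs. Mature microRNAs are not captured by this assay, so the deletions could not be checked on them. The host transcript Mir155hg had at most 3.22 CPM in Nai Cd8 cells of any library, too few UMIs to read a difference.

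The Nai Cd8 cells were first described by 5 markers, which fewer cells of aged 146aKO carried than of the other libraries. The annotation may rest on the same genes, so the markers do not test the name. Cd8a and Cd8b1 encode the chains of the CD8 coreceptor, Ccr7 a lymph node homing receptor, Lef1 a transcription factor of naive T cells, and Dapl1 a gene typical of naive CD8 cells. A UMI of Cd8b1 was found in 97.9%, 96.6%, 86.0% and 95.8% of Nai Cd8 cells. In Fo B cells (follicular B cells), which should lack it, the shares were 1.96%, 1.30%, 0.788% and 0.635%. Cd4, the coreceptor of helper T cells, had a UMI in 0.772% to 4.30% of Nai Cd8 cells. A stricter set of cells had a CD8 UMI and none of Cd4, the B cell genes Cd79a and Cd79b, or the myeloid gene Lyz2. It held 498 of 766, 150 of 261, 47 of 93 and 152 of 240 Nai Cd8 cells. Of all Nai Cd8 cells 94.1%, 92.7%, 53.8% and 92.1% had 3 or more of the 5 markers. The aged 146aKO library thus stood apart, with that many markers in 50 of its 93 cells.

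After each cell was thinned to 1000 UMIs, which left out 1 cell each in young WT and aged 146aKO, the aged 146aKO cells stood apart in the same way. Lef1 then had a UMI in 44.4%, 42.9%, 19.6% and 37.1% of cells, and Dapl1 in 50.6%, 39.8%, 19.6% and 44.2%. Ccr7 was found in 35.0%, 31.4%, 14.1% and 29.6%, but Fo B cells express it too, with 19.5%, 19.6%, 11% and 14.8%. Cd8b1 was found in 81.8%, 80.5%, 60.9% and 77.1%.

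The aged 146aKO cells also stood apart in the number of Ccl5 UMIs per cell, so the shares, lists and genes the comparisons turn on are given with and without the cells rich in Ccl5. Ccl5 (chr11:83525778-83530518, minus strand) encodes the chemokine RANTES, which memory and effector CD8 cells store as transcript. Cells with 3 or more Ccl5 UMIs numbered 16 of 766, 21 of 261, 55 of 93 and 35 of 240. These are 2.09% (1.2% to 3.37%), 8.05% (5.05% to 12%), 59.1% (48.5% to 69.2%) and 14.6% (10.4% to 19.7%), with exact binomial intervals. The interval of aged 146aKO lay apart from the other 3. The limit of 3 UMIs was set after seeing the counts, and few cells lay next to it: 4, 4, 0 and 2 cells had 3 to 4 Ccl5 UMIs, and 146, 45, 13 and 25 had 1 to 2. In cells under that limit Ccl5 had 68.7, 64.8, 96.1 and 40.9 CPM, beside 65.8, 81.2, 113 and 40.8 CPM in Fo B cells. The limit itself holds Ccl5 to at most 2 UMIs per cell, so the low level in these cells was set by it. For scale, 72.5% to 94.9% of the cells named Mem Cd8 (memory CD8) had 3 or more Ccl5 UMIs, as did 0 to 2 Fo B cells per library.

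**Figure D1:**
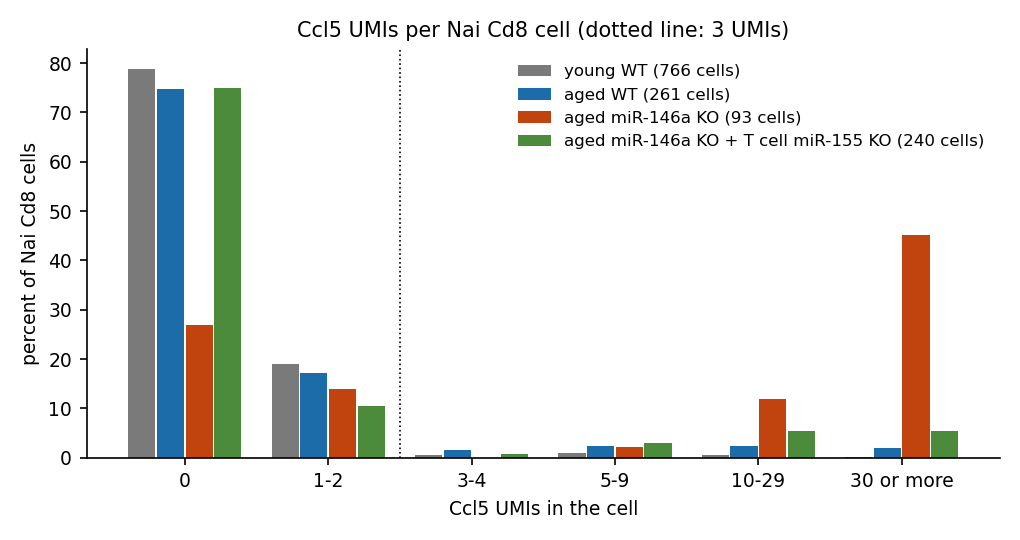
Share of Nai Cd8 cells (percent, vertical axis) with a given number of Ccl5 UMIs (bins on the horizontal axis), in each of the 4 libraries. Most cells of 3 libraries had 0 Ccl5 UMIs, whereas 53 of the 93 aged 146aKO cells had 10 or more.

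In the Ccl5-rich cells the 5 markers also differed between libraries. At least 3 markers were present in 15 of 16 such cells of young WT, 18 of 21 of aged WT, 18 of 55 of aged 146aKO and 30 of 35 of the double knockout. In the cells under 3 Ccl5 UMIs the shares were 94.1%, 93.3%, 84.2% and 93.2%. In Mem Cd8 cells at least 3 markers were present in 39.0%, 28.1%, 16.1% and 35.5% of the Ccl5-rich cells. The shares in the other Mem Cd8 cells were 76%, 3.57%, 0% and 9.76%, so in young WT many Mem Cd8 cells carried that many markers too. A CD8 transcript (Cd8a or Cd8b1) was found in 46 of the 55 Ccl5-rich cells of aged 146aKO and a Cd4 transcript in 2. Lef1 had 643, 305, 58.0 and 291 CPM in the Ccl5-rich cells, against 648, 556, 442 and 503 CPM in the rest. The Ccl5-rich cells of aged 146aKO were therefore CD8 cells with little Lef1, and the name Nai Cd8 is kept for them only because the annotation gives it.

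A list of 26 memory and virtual memory genes, counted without Ccl5, was also highest in the Ccl5-rich cells of aged 146aKO. Its median summed level over cells was 3734, 4681, 8309 and 6749 CPM per cell in the Ccl5-rich cells and 2544, 2866, 3927 and 2833 in the rest. In Mem Cd8 cells rich in Ccl5 it was 7541, 10100, 12870 and 11040. A list of 20 naive and quiescence genes had a median of 7075, 6950, 5901 and 6627 CPM per cell in the Ccl5-rich cells, and 7973, 8614, 7731 and 7843 in the rest. In the Ccl5-rich Mem Cd8 cells that list had 5443, 5810, 4632 and 5691. In each library the Ccl5-rich Nai Cd8 cells lay between the other Nai Cd8 cells and the Mem Cd8 cells on both lists.

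The share of Nai Cd8 cells among annotated cells was compared between ages and genotypes, as a share of the sorted cells and not as a number of cells per spleen. It was largest in young WT, 11.2% (10.5% to 12%, 766 of 6821). It was 4.43% (3.92% to 4.98%) in aged WT, 1.92% (1.56% to 2.35%) in aged 146aKO and 3.64% (3.20% to 4.12%) in the double knockout. The aged WT share was 2.54-fold lower than the young WT share (ratio 0.394, 0.344 to 0.452). The aged 146aKO share was in turn 2.30-fold lower than the aged WT share (ratio 0.435, 0.344 to 0.549). The double knockout share was 1.89-fold that of aged 146aKO (1.49 to 2.40) and 0.822 times that of aged WT (0.693 to 0.976).

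Without the Ccl5-rich cells the shares of the genotypes differed more. This follows from the limit, set after seeing the counts, because aged 146aKO had the largest part of its cells past it. The shares were 11%, 4.07%, 0.786% and 3.11% of annotated cells. The aged 146aKO share was then 5.18-fold lower than that of aged WT (ratio 0.193, 0.138 to 0.272) and the double knockout share 3.95-fold that of aged 146aKO (2.80 to 5.58). Only 38 cells of the aged 146aKO library remained. Among the 5 annotated T cell types the Nai Cd8 share was 26.4%, 14.9%, 6.14% and 11.5%, in the same order of libraries. Among the 3 types named as CD8 it was 63.8%, 34.4%, 16.6% and 31.1%, but cells of the type Early Act Cd8 had a Cd8a or Cd8b1 UMI in only 8.57% to 57.1%. A share is relative to the other cells of the sort, so fewer Nai Cd8 cells and more of other cells cannot be told apart.

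**Figure D2:**
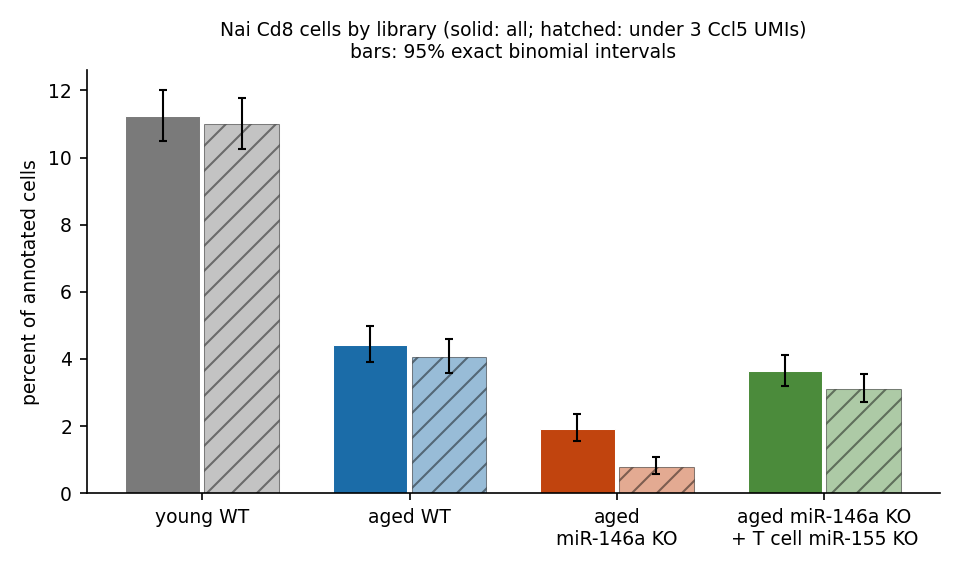
Nai Cd8 cells as percent of all annotated cells (vertical axis) in the 4 libraries. Solid bars count all Nai Cd8 cells, hatched bars those under 3 Ccl5 UMIs, and error bars are 95% exact binomial intervals. The share was 11.2%, 4.43%, 1.92% and 3.64%, and the hatched bar of aged 146aKO was 0.786%.

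Aged WT Nai Cd8 cells differed from young WT cells in a modest number of genes, and 17 of 19 naive and quiescence genes were within 1.5-fold. Igfbp4, which encodes a binding protein of insulin-like growth factors and is typical of naive T cells, was 2.33-fold higher in aged WT. Bcl2, the survival factor downstream of interleukin 7, was 1.78-fold higher, and H2-Q6, a non-classical MHC class I gene, 2.15-fold higher. Tspan32, a tetraspanin that restrains T cell proliferation, was 2.16-fold lower in aged WT. Of 4495 genes with at least 20 UMIs expected in the smaller library, 129 (2.87%) were higher and 182 (4.05%) lower by more than 1.5-fold. For only 16 genes (0.356%) did the interval lie wholly past 1.5-fold, and for the others the interval reached inside that limit.

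Igfbp4 (chr11:99041244-99054392, plus strand) had 216, 505, 299 and 317 CPM, highest in aged WT. Its ratio of aged WT to young WT was 2.33 (2.05 to 2.65), and 2.45 (2.16 to 2.79) in cells under 3 Ccl5 UMIs. In Nai Cd4 cells the same gene had 404, 591, 90.9 and 288 CPM. Bcl2 (chr1:106538178-106714274, minus strand) had 376, 669, 588 and 484 CPM, lowest in young WT. Its ratio was 1.78 (1.61 to 1.98), and 1.71 (1.53 to 1.90) without the Ccl5-rich cells. In Nai Cd4 cells Bcl2 had 346, 448, 374 and 376 CPM, a smaller spread than in Nai Cd8 cells.

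The immunity-related GTPase gene Iigp1, an interferon-induced gene of cell-autonomous defence, had 13.1, 51.6, 37.7 and 47.9 CPM. It was 3.95-fold higher in aged than in young WT (2.46 to 6.42), on 48 and 31 UMIs. All 3 aged libraries lay above the young one, and in Nai Cd4 cells Iigp1 had 21, 80.1, 88.2 and 80.4 CPM. H2-Q6 had 73.3, 158, 113 and 122 CPM, with a ratio of 2.15 (1.72 to 2.70). In Nai Cd4 cells H2-Q6 had 29.2, 125, 154 and 171 CPM, so there too the young library was lowest. The noncoding RNA gene AW112010, known as interferon- and inflammation-inducible, had 622, 1071, 1418 and 1028 CPM and a ratio of 1.72 (1.59 to 1.87). Cst7, the gene of cystatin F, an inhibitor of granule proteases, had 59.0, 119, 160 and 144 CPM and a ratio of 2.02 (1.56 to 2.61). Ccpg1, an endoplasmic reticulum autophagy receptor gene, had 24.0, 62.3, 29 and 27.2 CPM and a ratio of 2.60 (1.77 to 3.81). Ccpg1 stood out in aged WT in other cells too, with 27.5, 68.5, 22.4 and 33.9 CPM in Nai Cd4 and 19.7, 47.1, 17.8 and 18.9 CPM in Fo B cells.

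Of the genes lower with age, Tspan32 (chr7:143005046-143019644, plus strand) had 188, 87.0, 37.7 and 122 CPM. Its aged to young ratio was 0.462 (0.360 to 0.587), and 0.464 without the Ccl5-rich cells. Nai Cd4 cells had 472, 504, 514 and 553 CPM of Tspan32 and showed no such drop. Tnks2, the gene of the poly-ADP-ribose polymerase tankyrase, had 49.3, 18.3, 26.1 and 34.9 CPM and a ratio of 0.371 (0.209 to 0.619). Mgst2, a microsomal glutathione transferase gene, had 96, 44, 37.7 and 49.2 CPM and a ratio of 0.459 (0.321 to 0.642). Ccr9, the gut and thymus homing receptor of recent thymic emigrants, had 173, 96.7, 5.8 and 75 CPM, with an aged to young ratio of 0.56 (0.44 to 0.70). That interval held values on both sides of the 1.5-fold limit, and Ccr9 is given as the lowest member of the homing list.

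The lists of naive genes and of memory genes differed between aged and young WT in unlike ways. Of 19 measured naive and quiescence genes 2 were past 1.5-fold, both higher (Igfbp4 and Bcl2), with a median log2 ratio of -0.02 against -0.00 over all 4495 genes. Lef1 had 648, 534, 232 and 466 CPM, and Dapl1 1015, 705, 418 and 789 CPM. Their aged to young ratios were 0.82 (0.74 to 0.91) and 0.69 (0.64 to 0.76), so both were lower in aged WT, within 1.5-fold. Over all 4495 genes 2.87% were higher and 4.05% lower. Of 14 measured memory and virtual memory genes 7 were higher and 0 lower, with a median log2 ratio of 0.61. They were Ccl5, Cxcr3 (2.19), Ly6a (1.96), Id2 (1.74), Il2rb (1.71), Ahnak (1.69) and Ctsw (1.59). Only Ccl5 among them had an interval wholly past 1.5-fold. Il2rb encodes the interleukin 15 and interleukin 2 receptor beta chain that marks virtual memory cells. Cd44 and Eomes, the defining genes of that state, had too few UMIs to pass the filter. In cells under 3 Ccl5 UMIs, where 2.63% of all tested genes were higher and 3.91% lower, 5 of 13 memory genes were higher, with a median of 0.30: Cxcr3 (2.01), Ly6a (1.84), Id2 (1.75), Il2rb (1.67) and Ctsw (1.52). The interval lay wholly past 1.5-fold for 0 of these 13 memory genes and for 0.402% of all genes tested in those cells.

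Other gene groups were compared between aged and young WT in the same way. Over all 4495 genes tested 2.87% were higher and 4.05% lower, so a count of 1 gene is not read as a trait of its group. Of 15 genes of cytokine receptors with the common gamma chain and their signalling 4 were higher, with a median log2 ratio of 0.22, among them Socs3 (2.00), an inhibitor of JAK kinases, Il2rb (1.71) and Stat3 (1.59). Of 20 interferon response genes 2 were higher, Ly6a among them, and 3 lower, Ifi27l2a (0.55), Ifi208 (0.62) and Ifi213 (0.66). None of 21 genes of T cell receptor signalling, 10 of NF-kB subunits and inhibitors, 7 of the cell cycle, 85 of ribosomal proteins or 12 encoded in mitochondria was past 1.5-fold. Of 13 immediate early and heat shock genes Jun alone was higher, with 8.42, 38.7, 81.2 and 34.9 CPM. Jun had 26.3, 65.0, 75.1 and 80.4 CPM in Nai Cd4 and 59.0, 122, 112 and 110 CPM in Fo B cells. The summed level of 10 B cell markers in Nai Cd8 cells was 1507, 2585, 1760 and 1761 CPM, highest in aged WT, and its part in these differences was not tested.

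**Figure D3:**
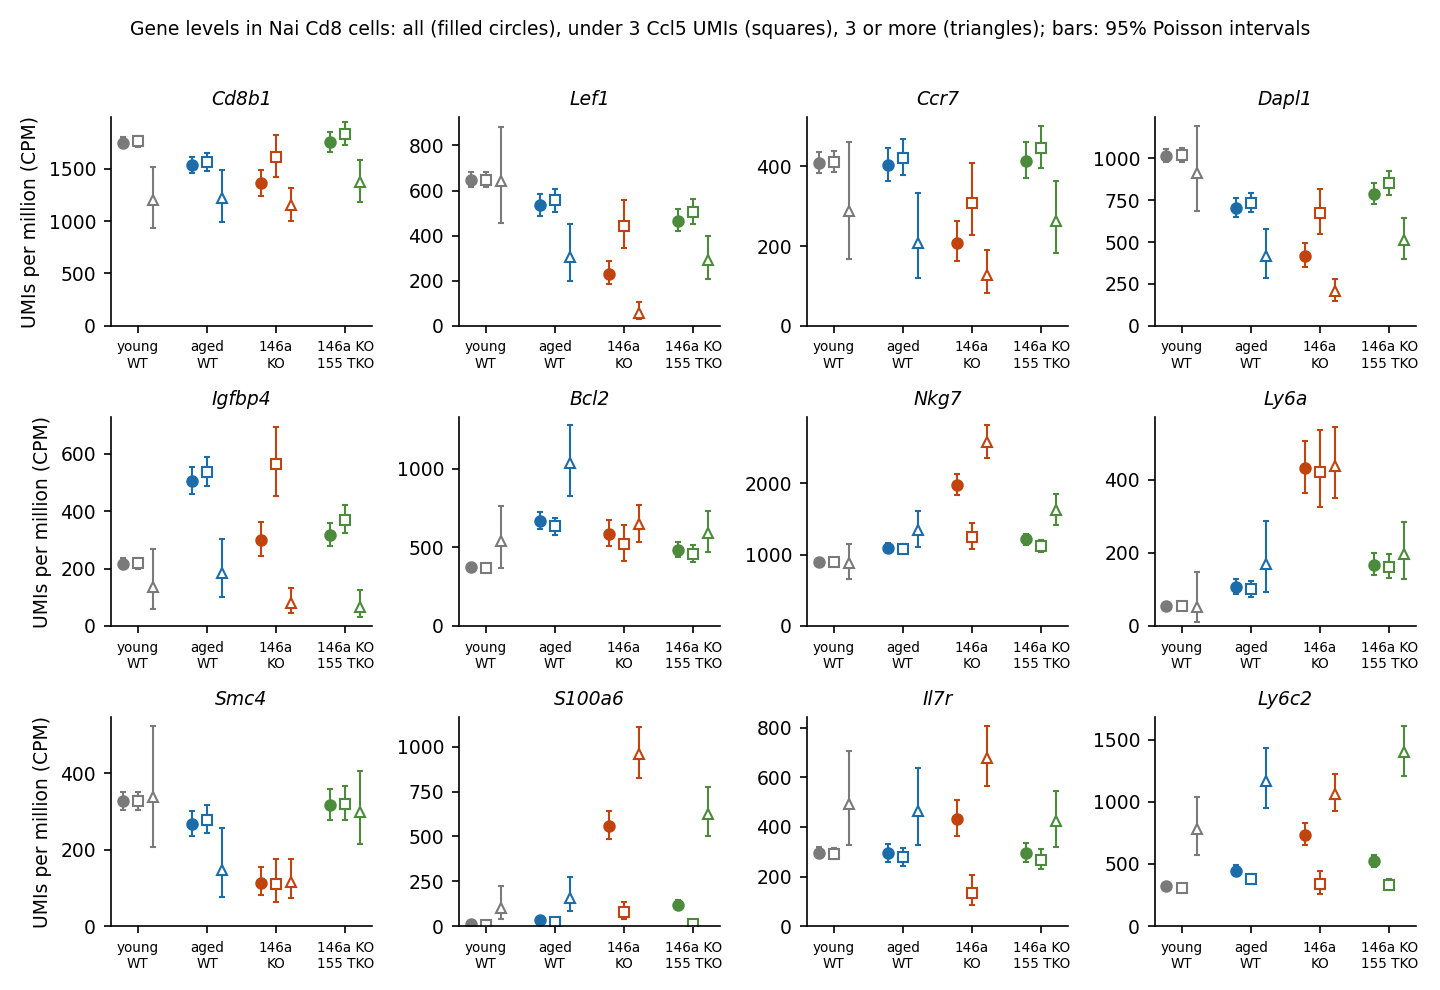
Levels of 12 genes in Nai Cd8 cells (CPM, vertical axes that start at 0) in the 4 libraries. Circles are all cells, squares cells under 3 Ccl5 UMIs and triangles cells with 3 or more, and bars are 95% Poisson intervals. Over all cells Igfbp4 and Bcl2 were lowest in young WT, whereas Smc4 was lowest in aged 146aKO in all cells and in cells under 3 Ccl5 UMIs.

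Set against aged WT, the aged 146aKO library had Nai Cd8 cells with more of the memory genes and less of the naive genes. With 1 library per group, genotype and pool of mice cannot be told apart. Ccl5 was 17.3-fold higher in aged 146aKO, Ly6a 4.06-fold and Lgals1 3.96-fold, while Lef1 was 2.30-fold and Smc4 2.36-fold lower. Without the Ccl5-rich cells the differences in Nkg7, Cxcr3 and Lef1, and in Ccl5, which the limit itself uses, were smaller. Their intervals reached 1.5-fold or less, while those of Ly6a, Lgals1 and Smc4 stayed past it. Of 1951 genes past the filter, 92 (4.72%) were higher and 111 (5.69%) lower by more than 1.5-fold, and 18 (0.923%) had an interval wholly past it. In the cells under 3 Ccl5 UMIs 846 genes passed the filter, 20 (2.36%) higher, 29 (3.43%) lower and 7 (0.827%) with an interval wholly past 1.5-fold.

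Ccl5 had 131, 503, 8686 and 1282 CPM over all Nai Cd8 cells. The ratio of aged 146aKO to aged WT was 17.3 (15.7 to 19.1), and under 3 Ccl5 UMIs, a limit that itself uses the gene, it was 1.48 (0.778 to 2.66). Nkg7, the gene of a cytotoxic granule protein, had 901, 1099, 1980 and 1213 CPM and a ratio of 1.80 (1.63 to 1.99). Without the Ccl5-rich cells Nkg7 had 902, 1076, 1255 and 1125 CPM and a ratio of 1.17 (0.995 to 1.36). Cxcr3, a receptor that guides memory cells to inflamed tissue, had 20.6, 45.1, 136 and 62.1 CPM. Its ratio was 3.02 (1.95 to 4.69) over all cells and 1.75 (0.767 to 3.67) without the Ccl5-rich ones. Itgb1, an integrin chain gained by memory cells, had a ratio of 2.87 (1.71 to 4.85), and Ctla2a, a cathepsin inhibitor gene, of 4.55 (2.89 to 7.29). For Itgb1 and Ctla2a the ratio without the Ccl5-rich cells was 1.89 (0.731 to 4.38), on 8 UMIs of each gene in aged 146aKO.

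Ly6a (chr15:74994877-74998031, minus strand) encodes the surface protein Sca-1, which T cells raise after activation and interferon. It had 54.3, 106, 432 and 168 CPM, and the order was the same in cells under 3 Ccl5 UMIs, with 54.4, 100, 423 and 162 CPM. The ratio of aged 146aKO to aged WT was 4.06 (3.13 to 5.29) over all cells and 4.22 (3.01 to 5.89) without the Ccl5-rich ones. In cells with a CD8 UMI and no UMI of Cd4, Cd79a, Cd79b or Lyz2 the ratio of Ly6a was 2.52. These were 47 cells in aged 146aKO and 150 in aged WT. Other lymphocytes of the same libraries had the same order for Ly6a in T cells, with 183, 338, 768 and 447 CPM in Nai Cd4 and 89.2, 142, 589 and 253 CPM in Mem Cd8 cells. In Fo B cells it was 350, 293, 528 and 423 CPM. Lgals1, the gene of the lectin galectin-1, had 252, 177, 702 and 291 CPM, and 250, 144, 436 and 228 CPM without the Ccl5-rich cells. Its ratio was 3.96 (3.23 to 4.85) and 3.03 (2.22 to 4.11).

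Smc4 (chr3:69004738-69034623, plus strand), a core subunit of the condensin complexes that compact chromosomes, had 326, 266, 113 and 316 CPM. The aged 146aKO library was the lowest, also without the Ccl5-rich cells, with 326, 278, 109 and 319 CPM. Its ratio to aged WT was 0.424 (0.295 to 0.597) over all cells and 0.392 (0.224 to 0.641) without them. In Nai Cd4 cells Smc4 was level, with 393, 392, 391 and 390 CPM, and in Mem Cd8 cells it had 316, 153, 120 and 161 CPM. Zfp36l1, an RNA-binding protein that promotes quiescence of lymphocytes, had 105, 114, 23.2 and 93.1 CPM. It was 4.91-fold lower in aged 146aKO than in aged WT (2.40 to 11.7), with only 8 UMIs in aged 146aKO. The ratio in cells under 3 Ccl5 UMIs was 0.277 (0.0881 to 0.670), whose interval reached inside 1.5-fold. Lef1 (chr3:131110471-131224356, plus strand) had a ratio of 0.434 (0.339 to 0.551) over all cells. Without the Ccl5-rich cells its ratio was 0.795 (0.608 to 1.02), an interval that holds 1.

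Differences in Tpm3-rs7 and S100a8 were found in every cell type compared. Tpm3 had 439, 444, 232 and 233 CPM and its near-identical copy Tpm3-rs7 had 5.90, 9.67, 272 and 265 CPM. Their sum was 445, 453, 504 and 498 CPM, and Tpm3-rs7 made up 1.33%, 2.13%, 54.0% and 53.2% of it, with 1.75%, 1.97%, 51.6% and 59.0% in Fo B cells. How reads were split between such copies is uncertain, so neither gene is read as a difference. S100a8, a granulocyte gene, had 8.85, 9.67, 307 and 384 CPM in Nai Cd8 cells, but as much in Fo B cells, with 4.54, 9.87, 377 and 536 CPM. The 8 myeloid markers summed to 139, 149, 765 and 812 CPM in Nai Cd8 and to 433, 418, 1032 and 1366 CPM in Fo B cells, with Itgam at 0 UMIs in Nai Cd8 cells of 3 libraries.

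By list, 6 of 18 naive and quiescence genes were lower in aged 146aKO than in aged WT and 0 higher, with a median log2 ratio of -0.35. These were Lef1 (0.43), Ccr7 (0.52), Dapl1 (0.59; 0.92 without the Ccl5-rich cells), Igfbp4 (0.59), Foxp1 (0.62), which keeps naive T cells quiescent, and Actn1 (0.62). In cells under 3 Ccl5 UMIs 1 of 16 was lower and the median was -0.11. That gene was Il7r, which encodes the interleukin 7 receptor. Of 14 memory genes 11 were higher and 0 lower over all cells, with a median of 0.79, where 4.72% of all 1951 genes were higher and 5.69% lower. Without the Ccl5-rich cells 2 of 8 were higher and the median was 0.22. Those were Ly6a and Cd7 (1.61), a surface receptor of T cells. Fewer memory genes passed the filter there, so the counts cover unlike genes and do not show that the rest were level. Below the filter there, S100a6 had a ratio of 3.62 (1.59 to 7.95). Over all aged 146aKO Nai Cd8 cells S100a6 had 14.7% of its level in Ly6c+ monocytes, under the 20% set for named genes. At such a level RNA from other cells could contribute, which was not tested. Itgb1 (1.89), Cxcr3 (1.75) and Ccl5 (1.48) had intervals that held 1. Of the 846 genes tested there 2.36% were higher and 3.43% lower. Of the 5 markers 3 were lower over all cells and 0 without the Ccl5-rich cells.

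In the homing list, 4 of 12 genes were higher: Cxcr3, Itgb1, Gpr183 (1.63), a receptor for oxysterols, and Itga4 (1.60), the alpha 4 integrin chain. Only Ccr7 of that list was lower by more than 1.5-fold. Of 21 T cell receptor signalling genes 3 were higher, with Lcp2 (1.67), the adaptor SLP-76, highest. Of 9 common gamma chain genes Socs3 (1.72) and Il2rb (1.52) were higher and Il6ra (0.59) lower. Of 12 interferon response genes Ly6a was higher and Ifi47 (0.54) lower, and of 16 MHC class I genes 1 was higher. No ribosomal protein gene of 83 and no mitochondrial gene of 10 was past 1.5-fold. Over all 1951 genes tested 4.72% were higher and 5.69% lower, so a count of 1 gene is not read as a trait of its list.

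The double knockout was then compared with aged 146aKO, from which it differed by the added loss of miR-155 in T cells and by the pool of mice. In the double knockout Smc4 was 2.79-fold, Lef1 2.01-fold, Ccr7 1.98-fold and Dapl1 1.89-fold higher than in aged 146aKO, and Ccl5 6.78-fold, Ly6a 2.57-fold and Lgals1 2.41-fold lower. This comparison shares the aged 146aKO library with the previous one, so counting error in that library enters both with opposite sign. Of 1940 genes past the filter, 107 (5.52%) were higher, 86 (4.43%) lower and 13 (0.67%) had an interval wholly past 1.5-fold. Under 3 Ccl5 UMIs 848 genes passed, with 29 (3.42%) higher, 23 (2.71%) lower and 2 (0.236%) with an interval wholly past 1.5-fold.

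Smc4 was higher in the double knockout at a ratio of 2.79 (1.99 to 4.02), and at 2.93 (1.79 to 5.13) without the Ccl5-rich cells. Zfp36l1 had a ratio of 4.02 (1.93 to 9.65) over all cells and 3.19 (1.3 to 10.2) without the Ccl5-rich cells, where the interval reached inside 1.5-fold. Lef1 had a ratio of 2.01 (1.57 to 2.59), which was 1.14 (0.876 to 1.5) without the Ccl5-rich cells. Dapl1 had a ratio of 1.89 (1.57 to 2.28) and 1.26 (1.02 to 1.57) without them. Ccr7 had a ratio of 1.98 (1.53 to 2.60) and 1.45 (1.07 to 2.02) without them, with 412, 422, 307 and 447 CPM in those cells. The differences in the naive genes were thus smaller in the cells under 3 Ccl5 UMIs, and that in Smc4 was not.

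Of the genes lower in the double knockout, Ccl5 had a ratio of 0.148 (0.137 to 0.159), Itgb1 of 0.243 (0.129 to 0.445) and Ctla2a of 0.297 (0.190 to 0.462). In cells under 3 Ccl5 UMIs, a limit that uses Ccl5 itself, Ccl5 had a ratio of 0.426 (0.217 to 0.865), and Itgb1 and Ctla2a each of 0.276 (0.0946 to 0.823), all with intervals that reached inside 1.5-fold. Ly6a had a ratio of 0.389 (0.305 to 0.496), and 0.383 (0.279 to 0.530) without the Ccl5-rich cells. Lgals1 had a ratio of 0.415 (0.344 to 0.499), and 0.524 (0.390 to 0.709) without them. Ly6a in the double knockout lay between aged WT and aged 146aKO in all cells and in cells under 3 Ccl5 UMIs.

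**Figure D4:**
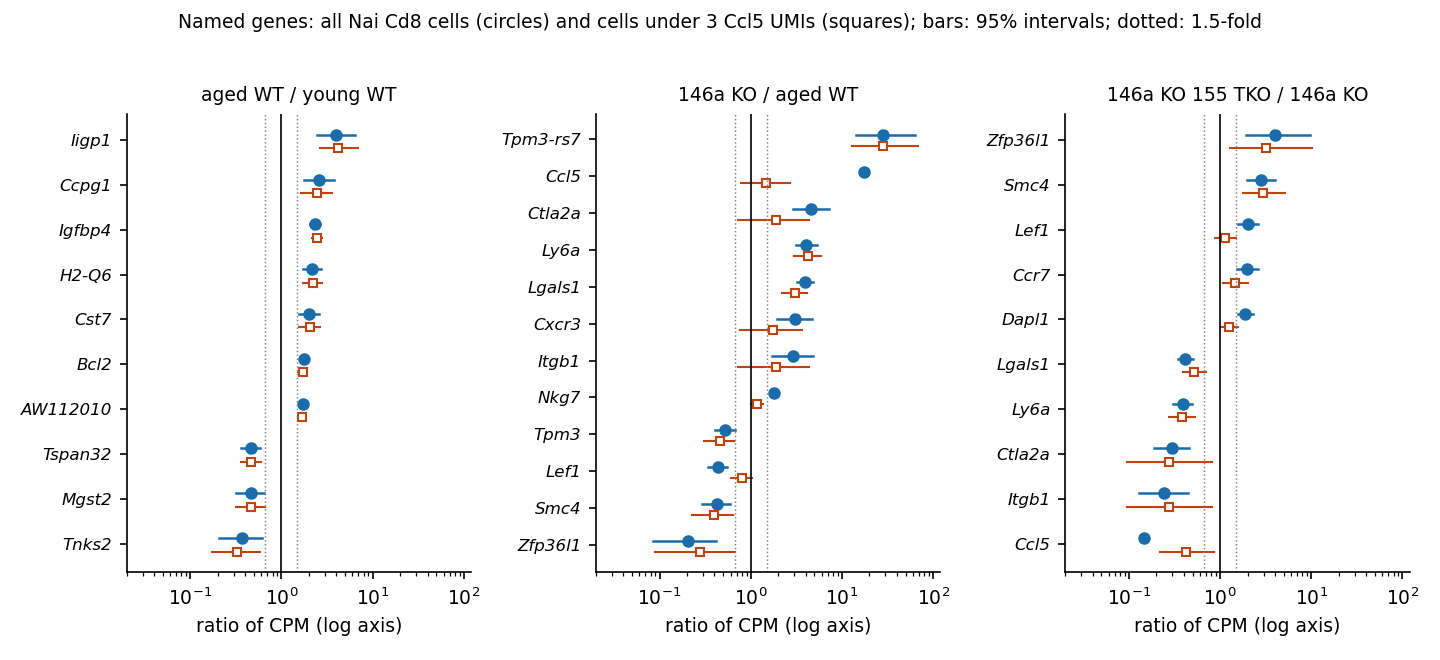
CPM ratios of the named genes on a log axis, 1 panel per comparison, with 95% counting intervals. Circles are all Nai Cd8 cells, squares cells under 3 Ccl5 UMIs, and dotted lines mark 1.5-fold. Aged against young WT the circles and squares nearly coincide. In the comparisons with aged 146aKO Nkg7 and Lef1 lie nearer to 1 as squares and Ly6a and Smc4 do not. Ccl5 also lies nearer to 1, but the limit behind the squares uses Ccl5 itself.

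By list, 5 of 18 naive and quiescence genes were higher in the double knockout than in aged 146aKO and 0 lower, with a median log2 ratio of 0.19. They were Lef1, Ccr7, Dapl1, S1pr1 (1.62), the receptor for exit from lymphoid organs, and Foxp1 (1.51). Of 14 memory genes 9 were lower and 0 higher, with a median of -0.78. Over all 1940 genes 5.52% were higher and 4.43% lower. In cells under 3 Ccl5 UMIs 1 of 16 naive genes was higher and 1 lower, with a median of 0.05. These were Il7r (1.99) and Igfbp4 (0.66). Of 8 memory genes Ly6a and Cd7 (0.66) were lower there, with a median of -0.11. Fewer memory genes passed the filter there than over all cells, so the counts cover unlike genes. S100a6, below the filter there, had a ratio of 0.12 (0.04 to 0.35). Of the 848 genes tested there 3.42% were higher and 2.71% lower. In the homing list Ccr7 and S1pr1 were higher, and Itgb1, Cxcr3, Itga4 (0.65) and Gpr183 (0.65) lower, of 11 measured. Of 21 T cell receptor signalling genes 0 were lower.

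The double knockout cells were also set directly against aged WT. Of 3930 genes past the filter 140 (3.56%) were higher, 206 (5.24%) lower and 23 (0.585%) had an interval wholly past 1.5-fold. None of the 5 markers was past 1.5-fold, with Lef1 at 0.87 and Ccr7 at 1.03. Of 19 naive genes Igfbp4 alone was past it, lower at 0.63 (0.54 to 0.73). Of 15 memory genes 3 were higher, Ccl5 at 2.55 (2.28 to 2.85), S100a6 at 3.57 (2.35 to 5.56) and Ly6a at 1.58 (1.21 to 2.08). Of 19 interferon response genes 2 were higher and 2 lower. Of 8 B cell markers 6 were lower and of 4 myeloid markers 3 higher, and their part in these differences was not tested. Bcl2 was at 0.72 (0.63 to 0.82) of the aged WT level and Smc4 at 1.19 (0.99 to 1.42). In cells under 3 Ccl5 UMIs, where 3.8% of 3398 genes were higher and 4.53% lower, 0 of 19 naive genes were past 1.5-fold and of 12 memory genes Ly6a was higher (1.62) and Ccl5, which the limit itself uses, lower (0.63). An interval wholly past 1.5-fold was found for 0.5% of the genes tested there.

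Il7r, Ccr9 and Gzmk were chosen for description after their values were seen. Il7r (chr15:9505788-9530176, minus strand) had 296, 293, 432 and 295 CPM over all cells, highest in aged 146aKO. In cells under 3 Ccl5 UMIs it had 292, 277, 134 and 267 CPM, lowest in aged 146aKO, and in the Ccl5-rich cells 491, 464, 678 and 422 CPM. The ratio of aged 146aKO to aged WT was 1.47 (1.2 to 1.8) over all cells and 0.49 (0.30 to 0.76) under 3 Ccl5 UMIs, on 21 UMIs in 38 cells, so its direction depended on which cells were counted. Ccr9, below the filter in aged 146aKO, had 90 UMIs in aged WT and 2 in aged 146aKO, a ratio of 0.06 (0.01 to 0.22). Under 3 Ccl5 UMIs Ccr9 had 176, 104, 12.8 and 91.2 CPM, and in Nai Cd4 cells 29, 24, 9.22 and 10.2 CPM. Gzmk, a granule protease gene of memory CD8 cells, had 0, 4, 26 and 0 UMIs, of which 3 of the 26 came from aged 146aKO cells under 3 Ccl5 UMIs.

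The genes whose transcripts the deleted microRNAs can bind were set beside all genes. Of the sites printed above, the host genes were sparsely counted: Traf6 had 22, 5, 4 and 5 UMIs, Irak1 58, 32, 10 and 17, Socs1 93, 45, 14 and 34, and Inpp5d 71, 21, 17 and 18. Ets1, a transcription factor of T cell survival with a miR-155 match, was better counted, with 332, 349, 272 and 274 CPM. Its ratio of the double knockout to aged 146aKO was 1.01 (0.79 to 1.30). Peli1, a ubiquitin ligase gene listed as a miR-155 target but without an 8-base match, had 323, 301, 197 and 298 CPM and a ratio of 1.51 (1.15 to 2.01), which was 1.21 (0.86 to 1.75) without the Ccl5-rich cells.

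The tested genes with an 8-base match were set against all tested genes. In aged 146aKO against aged WT, 73 genes with a miR-146a match had a median log2 ratio of 0.05, with 8 higher and 5 lower by more than 1.5-fold and an upper quartile of 0.40. The 1921 tested genes with an annotated 3′ untranslated region had a median of -0.00, with 91 higher and 109 lower and an upper quartile of 0.21. In the double knockout against aged 146aKO, 66 genes with a miR-155 match had a median of 0.04, with 3 higher and 1 lower, against -0.00 over 1911 genes. For the reverse assignment, 67 genes with a miR-155 match had a median of -0.07 in the first comparison and 72 genes with a miR-146a match 0.03 in the second. In aged against young WT the medians were -0.06 for 203 miR-146a genes and -0.01 for 168 miR-155 genes.

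Nai Cd8 cells were last set beside Nai Cd4 and Mem Cd8 cells of the same libraries, as a description with no test, since the annotation may rest on the same genes, and the genes named were chosen after their values were seen. Of 2130 genes past the filter in all 4 libraries, 99 had an interval wholly above the Nai Cd4 level in every library and 150 wholly below it. Beside Cd8a and Cd8b1 the leading ones were Ly6c2, a surface antigen of CD8 cells, at 13.4, 20.05, 34.95 and 18.4 times the Nai Cd4 level, and Nkg7 at 9.27, 8.07, 9.11 and 6.41 times. Klrd1, the CD94 receptor chain, Ctsw, a cathepsin, and Runx3, the transcription factor of the CD8 lineage, were also higher in every library. Cd4, Tspan32, Izumo1r, Cd28, Cd5 and Gata3 were lower in every library.

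Against Mem Cd8 cells, 84 of 2018 genes were wholly higher and 125 wholly lower in all 4 libraries. Higher ones were Igfbp4, Dapl1, Ccr7, Actn1, Lef1, Satb1 and S1pr1. Dapl1 stood at 3.19, 13.8, 17.6 and 10.2 times the Mem Cd8 level and Lef1 at 2.34, 3.83, 2.50 and 2.93 times. Lower ones were Klrc1, Klrk1, Id2, Xcl1, Eomes and Il2rb. Il2rb stood at 0.161, 0.234, 0.397 and 0.252 times the Mem Cd8 level and Ccl5 at 0.0178, 0.0288, 0.245 and 0.0631 times. For Il2rb and Ccl5 the nearest approach to Mem Cd8 cells was in aged 146aKO, and for Ccl5 this follows from that library having the most Ccl5-rich cells. Dapl1, Ccr7 and Actn1 went the other way, with their largest ratio to Mem Cd8 cells in aged 146aKO (17.6, 5.20 and 17.2 times). Their level in Nai Cd8 cells was nonetheless lowest in that library, at 418, 209 and 128 CPM. The large ratios thus came from low levels in its Mem Cd8 cells.

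**Figure D5:**
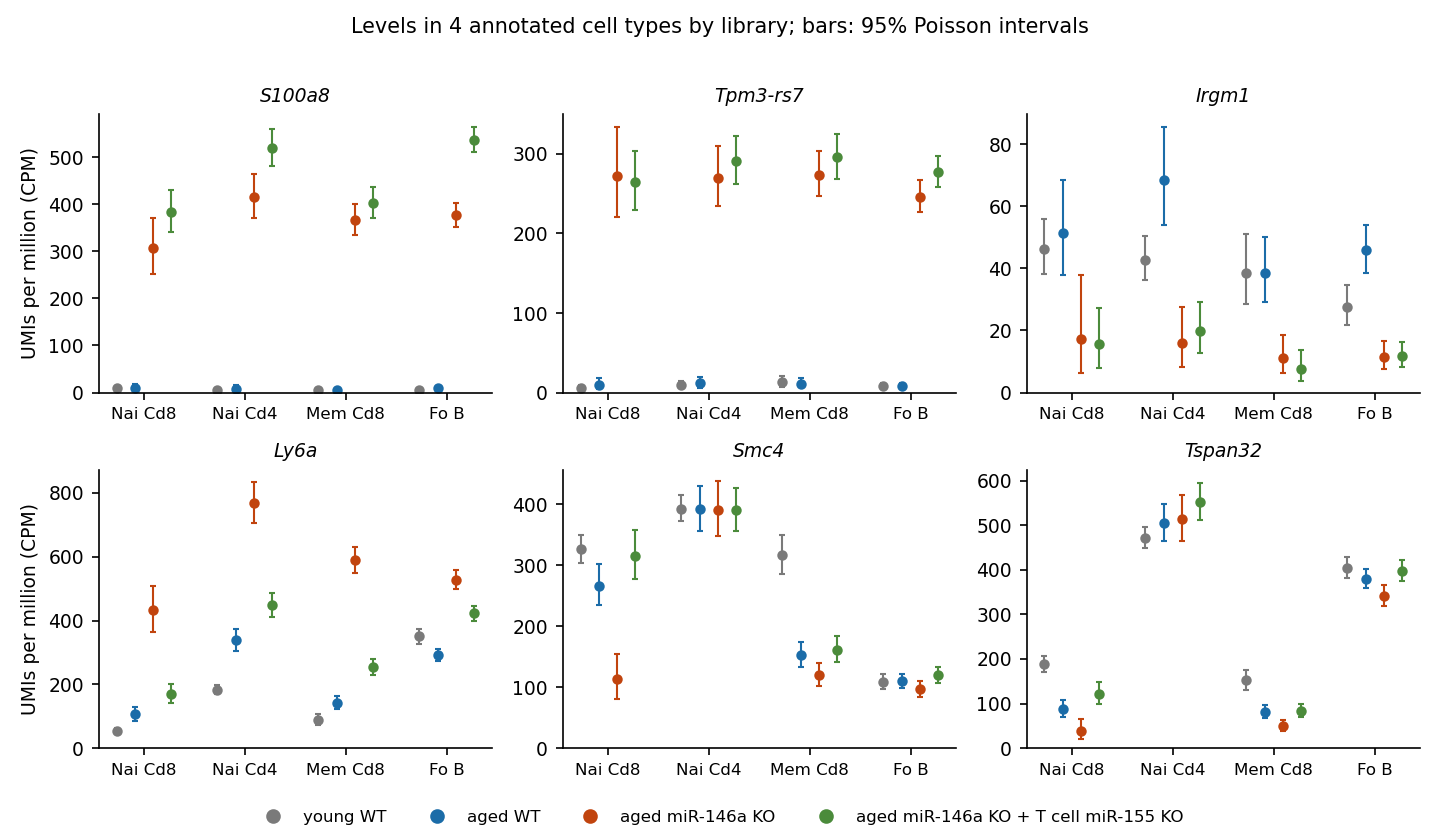
Levels of S100a8, Tpm3-rs7, Irgm1, Ly6a, Smc4 and Tspan32 (CPM, vertical axes) in Nai Cd8, Nai Cd4, Mem Cd8 and Fo B cells of the 4 libraries. S100a8, Tpm3-rs7 and Irgm1 differed between libraries in all 4 types, whereas Smc4 was level in Nai Cd4 (390 to 393 CPM) and Tspan32 was lower with age in Nai Cd8 and Mem Cd8 but not in Nai Cd4 cells.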

How the data were processed

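Spleen CD45+ cells of 4 groups were profiled with 10x Genomics droplets, with 3′ version 2 chemistry given for the libraries and 5′ sequencing mentioned elsewhere, per the labels' protocols. UMI counts per gene and cell were made by the authors with Cell Ranger 3.0.0 on mm10, per the submitters' processing notes, and used as deposited (31053 genes). Cell type names per barcode are the authors' own, and no source used here says how they were made. The members and gene lists were chosen with earlier results of these data known. UMIs were summed over Nai Cd8 cells per library; 0 deposited columns of values were left unused. A gene was compared where its mean CPM gave at least 20 UMIs in the smaller library, and counted as higher or lower past 1.5-fold; list medians add 1 count. Intervals (95%) are exact Poisson for sums, conditional binomial for CPM ratios, Clopper-Pearson for shares and Katz for share ratios, covering counting error only. Doublets were not called again; the annotation leaves out some barcodes. Sites were matched in the 3′ untranslated regions of the basic GENCODE annotation; gene coordinates are mm10.

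Named genes were up to 12 per direction and comparison whose interval lay wholly past 1.5-fold, with UMIs in at least 10 cells and at least 20% of the level of the highest cell type, leaving out immunoglobulin, T cell receptor, haemoglobin, mitochondrial, ribosomal, sex-linked marker and unnamed genes; the 5 markers, Mir155hg and the outermost members of lists were added. A few genes are not reported here. Python 3.11.15 with numpy 2.4.6, scipy 1.17.1, pandas 2.3.3 and matplotlib 3.10.9 was used. R 4.3.3 with edgeR 4.0.16 and DESeq2 1.42.0 gave scaling factors only; neither was used for a test. The counting procedure was tested on simulated data.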

Additional observations from a re-analysis of the deposited data

How the results depend on the processing

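No paired analysis was possible because each group had 1 library, and for the same reason no replicate could be left out. Among the shares, named genes and 5 markers recomputed, no ratio past 1.5-fold turned direction. Outside that set Ccl5, which the limit itself uses, did turn in cells under 3 Ccl5 UMIs. Its ratio of aged to young WT went from 3.83 to 0.94, and that of the double knockout to aged WT from 2.55 to 0.63. Some ratios near 1 also crossed 1. Cd8b1 in aged 146aKO against aged WT went from 0.887 to 1.03 in cells under 3 Ccl5 UMIs and in those with 0. Cd8a in the same comparison went from 0.994 to 1.10 under 3. It was 1.14 in cells with a CD8 UMI and none of Cd4, Cd79a, Cd79b or Lyz2. In the latter cells Cd8a in the double knockout against aged 146aKO went from 1.08 to 0.954. Ccr7 and Cd8a in aged against young WT went from just under to just over 1. Il7r, described apart, also turned without the Ccl5-rich cells. The share ratio of aged to young WT was 0.564 among 5 T cell types and 0.539 among 3 CD8 types. The numbers of genes past 1.5-fold moved with the filter, the fold and the cells. With at least 50 expected UMIs they were 26 higher and 24 lower for aged against young WT, 27 and 15 for aged 146aKO against aged WT, and 13 and 20 for the double knockout against aged 146aKO. With at least 5 expected UMIs they were 643 and 740, 679 and 753, and 740 and 685. Without a filter they were 2036 and 2691, 2333 and 3278, and 3145 and 2371. Past 2-fold they were 23 and 17, 17 and 15, and 13 and 18. In cells with a CD8 UMI and none of Cd4, Cd79a, Cd79b or Lyz2 they were 80 higher for aged against young WT, 49 and 38, and 36 and 47. In those cells Zfp36l1 in the double knockout against aged 146aKO was at 2.44 and Itgb1 at 0.153. Averaged over cells, the Ctla2a ratio of aged 146aKO to aged WT was 7.02, and that of the double knockout to aged 146aKO 0.189. TMM and DESeq2 scaling moved none of these counts by more than 1.5 times. The cause of these moves was not tested beyond what each setting itself changes.

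Leaving out Ccl5-rich cells was chosen after seeing the data. With cells under 3 Ccl5 UMIs, or with 0, the share ratio of aged 146aKO to aged WT was 0.193 and 0.156, and that of the double knockout to aged 146aKO 3.95 and 5.28. The counts were 20 higher and 29 lower, or 18 and 14, for the former comparison, and 29 and 23, or 17 and 19, for the latter. The naive list median was -0.11 and -0.12 for the former and 0.028 with 0 Ccl5 UMIs for the latter. The memory list median was 0.22 under 3 Ccl5 UMIs for the former, and -0.11 and -0.26 for the latter. The share of Nai Cd8 cells with 2 or more memory genes, 64.8%, 72.8%, 93.5% and 78.8% at 1000 UMIs per cell, was 97%, 98.5%, 100% and 97.9% without thinning and 83.7%, 87.0%, 98.9% and 91.7% at 1500. The 93 aged 146aKO cells, and 38 under 3 Ccl5 UMIs, leave genes of low level unread, and 1 pool per group leaves the spread between mice unknown.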

Other observations

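Some barcodes without a cell type name carried the naive CD8 marker pattern. They were 21 of 805 unnamed barcodes in young WT (2.61%, 1.62% to 3.96%), 5 of 1056 in aged WT (0.473%, 0.154% to 1.10%), 11 of 870 in aged 146aKO (1.26%, 0.633% to 2.25%) and 7 of 703 in the double knockout (0.996%, 0.401% to 2.04%). In aged 146aKO 9 of the 11 had over 9000 UMIs, and in young WT 13 of the 21 had at least 5% mitochondrial UMIs. Counting them would not change the order of the shares of naive CD8 cells across the libraries.

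The genes that follow were chosen after their values were seen. Irgm1, an interferon-induced GTPase gene, had 46.3, 51.6, 17.4 and 15.5 CPM in Nai Cd8 cells of young WT, aged WT, aged 146aKO and the double knockout. It was lower in both knockout libraries in other cells too, with 42.8, 68.5, 15.8 and 19.7 CPM in Nai Cd4 and 27.6, 45.9, 11.6 and 11.8 CPM in Fo B cells. S100a6, a calcium-binding protein gene raised in memory T cells, had 9.27, 33.3, 560 and 119 CPM over all Nai Cd8 cells and 6.91, 21.2, 76.9 and 9.44 CPM in those under 3 Ccl5 UMIs. In Nai Cd4 cells S100a6 had 39.6, 428, 1438 and 678 CPM. Ly6c2 had 321, 446, 736 and 521 CPM over all Nai Cd8 cells and 309, 376, 340 and 332 CPM in those under 3 Ccl5 UMIs. Klrd1 had 291, 213, 212 and 272 CPM, highest in young WT, where Ly6c2 was lowest.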
